A study of Mus musculus with 4 samples.

Results

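The nucleosome remodelling and deacetylase complex (NuRD) was described through 10 of its genes, Mta1, Mta2, Mta3, Chd3, Chd4, Hdac1, Hdac2, Mbd2, Mbd3 and Rbbp4, in mouse embryonic stem (ES) cells labelled null or heterozygous for the zinc finger factor Sall4. The genes were chosen as a list of symbols, and every probe set annotated to 1 of these symbols alone was read. This gave 21 probe sets of the 34945 that named a single gene, and 10 of the 18193 genes they named. Each of the 4 groups was 1 culture of E14.1 ES cells hybridised to 1 Affymetrix array: cells labelled Sall4-null (delta/-, line KO1) on mouse embryonic fibroblast feeders, heterozygous cells (flox/-, line HET18) on feeders, cells labelled null on gelatin without feeders, and heterozygous cells on gelatin without feeders. All cultures received LIF and blasticidin, and all cells carried a blasticidin-resistance gene targeted to Oct3/4, which selects for cells that express it. The feeder fibroblasts were themselves resistant to blasticidin. Each genotype was 1 cell line, so line and genotype cannot be told apart, and with 1 array per group no spread within a group was measured.

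NuRD joins a remodeller of the CHD family, which moves nucleosomes with energy from ATP, to the histone deacetylases HDAC1 and HDAC2. MTA proteins form the scaffold that holds the deacetylases, RBBP4 binds histones, and MBD2 or MBD3, which exclude each other, link the modules. SALL proteins bring NuRD to DNA through a short motif at their N-terminus. In mouse ES cells, MBD3 is known for restraining pluripotency genes so that cells can leave self-renewal.

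All values are MAS5 signals, the linear brightness that summarises the probes of a probe set, scaled by the authors to the same trimmed mean on each array. Differences are log2 differences of signal + 4.6, an offset that draws the folds of weak signals towards 1. Each gene was read by its brightest probe set unless stated. The test was limma with a genotype and a feeder term over the 12485 genes with a mean above the filter signal of 9.46, adjusted over all of them by the Benjamini-Hochberg method. All 10 members passed that filter, as did 20 of their 21 probe sets. The exception was the dimmer Mta1 probe set, which read 2.4 and 0.6 on feeders and 0.6 and 0.9 without feeders in cells labelled null and heterozygous cells. Median signals of the arrays lay between 16.1 and 18, and probe sets were not ranked against each other, since brightness differs between probes.

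Sall4 did not fall on the arrays labelled null. Its brighter probe set read 1452.4 in cells labelled null and 780.8 in heterozygous cells on feeders, and 1670.5 and 1126.5 without feeders. The fitted log2 difference was 0.73 (SE 0.12, limma adjusted p = 0.152). Its dimmer probe set differed by 2.40-fold on feeders and 2.54-fold without feeders, in the same direction. The sources used here give neither the deleted part of the gene nor the place of these probes, so every direction by genotype below rests on the labels.

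The first comparison asked whether NuRD genes differed between the genotypes. No NuRD gene was called (0 of 10 by limma), against 0.032% of all tested genes. The 4 genes called among all tested had log2 differences of at least 2.83 in size, so smaller differences by genotype, 2-fold ones included, did not pass in this design for any gene. At an unadjusted p under 0.05 there was 1 member, Mta3, beside 12.3% of all tested genes (5.8% higher and 6.5% lower). The fitted log2 differences of the members ran from -0.35 to 0.62 with a median of 0.08, where the median of all tested genes was 0.01 and their 5th and 95th percentiles were -0.63 and 0.64. The median size of the difference, regardless of sign, was 0.15 for the members and 0.20 for all tested genes. No member differed 2-fold in the same direction in both feeder conditions, which 1.11% of all tested genes did, nor 1.5-fold, which 3.96% did.

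**Figure D1:**
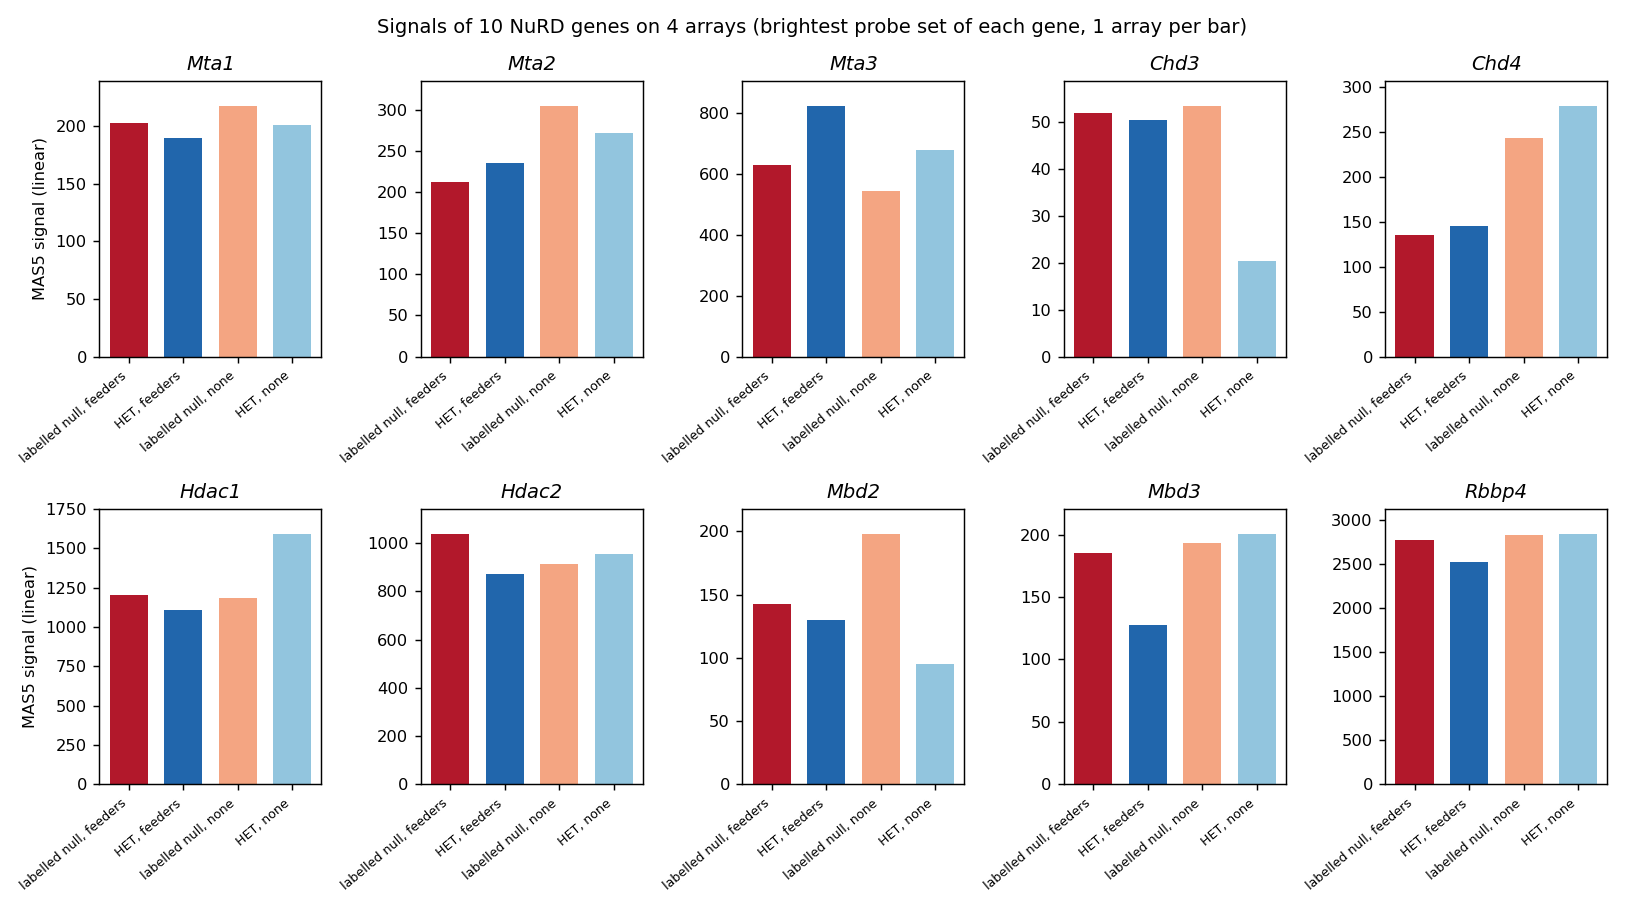
MAS5 signal (linear axis from 0) of the brightest probe set of each NuRD gene, with 1 bar per array and a scale of its own in each panel. The 4 Mta1 bars lie between 189.7 and 217.4, both Chd4 bars on feeders stand under both bars without feeders, and the Chd3 bar of heterozygous cells without feeders (20.5) stands under the other bars of that panel.

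The scaffold genes came first. Mta1 read 202.9 in cells labelled null and 189.7 in heterozygous cells on feeders, and 217.4 and 201.4 without feeders. The pairs were 1.07-fold and 1.08-fold apart, and the fitted log2 difference of 0.10 had a 95% interval of -0.30 to 0.51 (limma adjusted p = 0.843). Mta2 read 212.6 and 235.8 on feeders and 304.4 and 272 without feeders, so its genotype differences had opposite signs and averaged 0.01 (interval -0.41 to 0.42).

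Mta3 had the largest genotype difference among the members when the smaller of its values in the 2 feeder conditions is taken. Its brightest probe set read 628.8 in cells labelled null and 821.1 in heterozygous cells on feeders, and 543.7 and 677.2 without feeders. The array labelled null was the lower of each pair, with log2 differences of -0.38 on feeders and -0.31 without feeders. The fitted value was -0.35 (SE 0.12), and it did not pass (adjusted p = 0.353 by limma over all genes, 0.0299 before adjustment). The other 2 Mta3 probe sets did not show it. One read 97.2 and 79.2 on feeders and 119 and 121.4 without feeders, and the other 15.7 and 16.8 on feeders and 21 and 22.8 without feeders, in cells labelled null and heterozygous cells. Their mean log2 differences were 0.13 and -0.09. The brightest probe set carries the suffix s_at, which marks probes that can bind more than 1 transcript. The brightest Hdac2 probe set carries it too. The brightest probe sets of Rbbp4 and Rbbp7, read below, carry the suffix x_at, which marks probes that can bind other sequences.

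The remodeller genes came next. Chd3 has 1 probe set, which read 52.1 in cells labelled null and 50.6 in heterozygous cells on feeders, and 53.5 and 20.5 without feeders. The heterozygous array without feeders was low beside the other arrays, so that Chd3 was 1.03-fold higher in cells labelled null on feeders and 2.31-fold higher without feeders. The fitted log2 difference of 0.62 had an SE of 0.33 (limma adjusted p = 0.515). Chd4, the main CHD subunit of NuRD in ES cells, read 135.6 and 145.3 on feeders and 243.3 and 278.7 without feeders, 1.07-fold and 1.14-fold lower in cells labelled null (fitted -0.14, interval -0.56 to 0.27, limma adjusted p = 0.771).

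Among the deacetylase genes, Hdac1 read 1202.6 in cells labelled null and 1105.3 in heterozygous cells on feeders, and 1186 and 1592 without feeders. The heterozygous array without feeders was the high one, and the genotype differences of 0.12 on feeders and -0.42 without feeders had opposite signs. Hdac2 read 1038.8 and 872 on feeders and 913.6 and 954.4 without feeders, with differences of 0.25 and -0.06. Neither passed, with fitted values of -0.15 (interval -0.52 to 0.22, limma adjusted p = 0.731) and 0.09 (interval -0.22 to 0.41, limma adjusted p = 0.805).

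Mbd2 and Mbd3 are the alternative MBD subunits. Mbd2 read 142.8 in cells labelled null and 130.1 in heterozygous cells on feeders, and 198.1 and 95.1 without feeders. The arrays labelled null were the higher of each pair, 1.09-fold on feeders and 2.03-fold without feeders. Its second probe set, with 86.2 and 78.8 on feeders and 111.9 and 64.7 without feeders, gave 1.09-fold and 1.68-fold. Mbd3 read 185.5 and 127.9 on feeders and 193.6 and 200.7 without feeders, so here the heterozygous array on feeders was low and the difference lay on feeders, at 1.43-fold. Neither gene passed, with fitted log2 differences of 0.58 for Mbd2 (SE 0.26, limma adjusted p = 0.445) and 0.24 for Mbd3 (SE 0.21, limma adjusted p = 0.699).

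Rbbp4, the histone-binding subunit that NuRD shares with other chromatin complexes, had 4 probe sets. The brightest read 2771.5 in cells labelled null and 2518.6 in heterozygous cells on feeders, and 2824.8 and 2841.7 without feeders. Its fitted log2 difference of 0.06 had the narrowest interval of the 10 members, -0.13 to 0.26 (limma adjusted p = 0.784). The fit draws each variance towards that of genes of like signal, so this width is not a measured spread of Rbbp4. The mean differences of its other probe sets ran from 0.03 to 0.19.

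**Figure D2:**
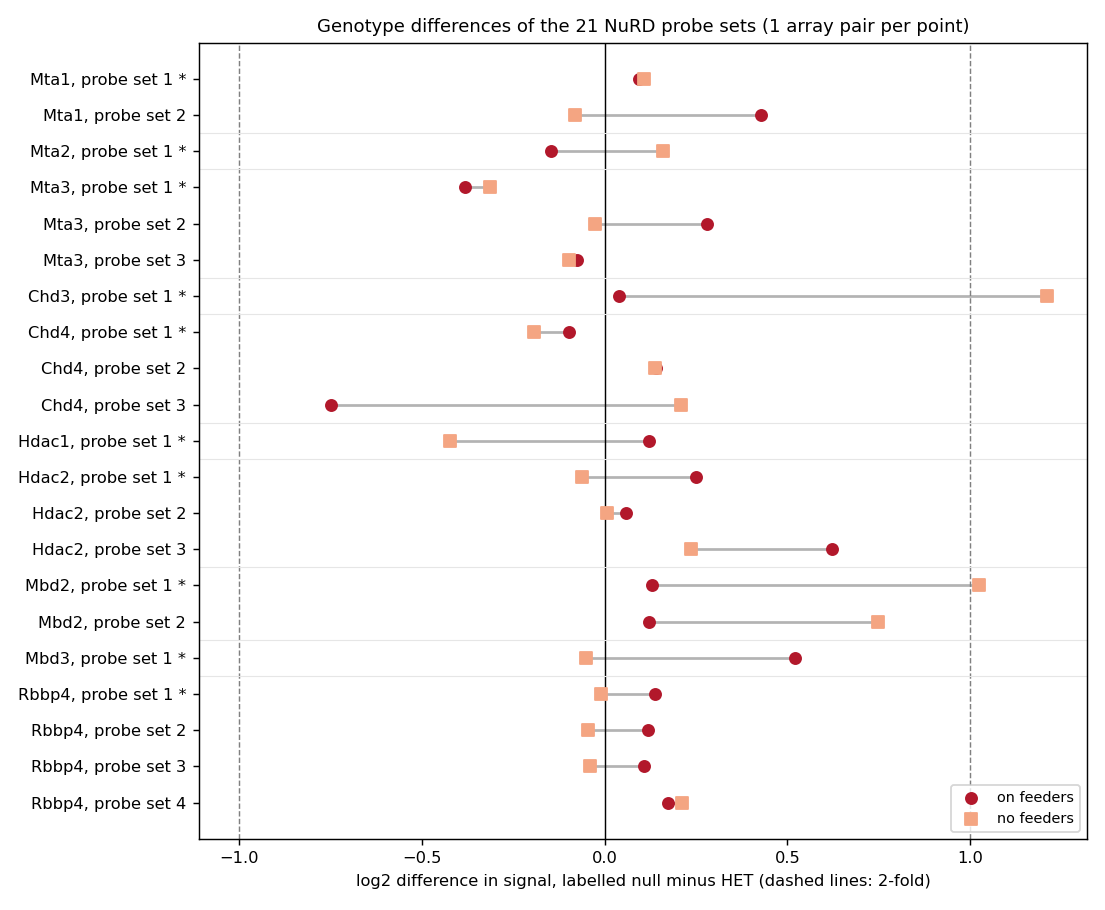
Log2 difference in signal between the array labelled null and the heterozygous array for the 21 NuRD probe sets, on feeders (circles) and without feeders (squares), each point from 1 pair of arrays. Asterisks mark the probe set that read the gene, and the probe sets of a gene are numbered from brightest to dimmest. Chd3 (1.21) and the brighter Mbd2 probe set (1.02) pass the 2-fold line without feeders, and no probe set passes it on feeders.

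Without feeders, Chd3 and Mbd2 were thus at least 2-fold higher on the array labelled null, 2 of 10 members, where 4.23% of all tested genes were. On feeders no member was (0 of 10), beside 1.52% of all tested genes. The genotype difference on feeders minus that without feeders was -1.17 for Chd3 and -0.89 for Mbd2. Chd3 was the 1 member of 10 where it reached 2-fold in either direction, beside 8.31% of all tested genes. With 1 array per group these contrasts are values without a test. Markers of embryonic fibroblasts moved in the same pair of arrays: 16 of 19 had a higher signal in cells labelled null without feeders, and their summed signal was 2789.6 there against 1681 on the heterozygous array. On feeders 18 of 19 were higher on the array labelled null, with sums of 20681 and 15687.1. Of 12 ES cell markers, 1 was higher in cells labelled null without feeders and 6 on feeders. Among all 12485 tested genes, 6272 were higher in cells labelled null without feeders and 6365 on feeders. Sums of linear signals weigh the brightest probe sets most. No fibroblast marker was at 0 on any array, although 8 of 19 lay below a signal of 9.5 on the heterozygous array without feeders. Col1a1, a fibroblast collagen, read 36 in cells labelled null and 1.5 in heterozygous cells without feeders. In the same order Col1a2 read 36.2 and 38.4, and Col3a1 read 243.7 and 19.2. The part of these cells in the Chd3 and Mbd2 differences was not tested. In such bulk RNA, fewer cells of a type and less RNA per cell cannot be told apart.

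The second comparison asked how NuRD genes differed between cultures on feeders and without feeders, where arrays on feeders also carry feeder RNA. Chd4 fell on feeders, the 1 member of 10 to pass. The array on feeders read 135.6 against 243.3 without feeders in cells labelled null, and 145.3 against 278.7 in heterozygous cells. Both arrays on feeders were below both arrays without feeders, by 1.77-fold and 1.89-fold. The fitted log2 difference was -0.87 (SE 0.17, interval -1.28 to -0.46, limma adjusted p = 0.0482). Among all tested genes 0.881% fell and 3.88% rose by the same test, and 7.77% were lower and 14.1% higher at an unadjusted p under 0.05. By the brightest probe sets, Chd4 was also the 1 member at least 1.5-fold lower in both genotypes, as were 2.03% of all tested genes. With every probe set read, the second Chd4 probe set and the dimmest of Hdac2 and of Rbbp4 were so too. The call stood close to the threshold and was lost under 6 of 10 alternatives, where the adjusted p reached 0.126.

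The other Chd4 probe sets were also lower on feeders. The second read 26.7 on feeders and 55.2 without feeders in cells labelled null, and 23.8 and 49.8 in heterozygous cells, 1.91-fold and 1.92-fold lower. With every probe set tested by itself, over 22986 probe sets, its adjusted p by limma was 0.0691 and that of the brightest 0.0357. The dimmest read 5.1 on feeders and 18.5 without feeders in cells labelled null, and 11.7 and 15.4 in heterozygous cells. The 3 probe sets thus shared a direction, and the brighter pair of them also a size. For the dimmest, the reading of 5.1 lies under the filter signal. Its log2 difference in heterozygous cells was -0.30, and its adjusted p by limma was 0.298.

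The remaining members did not pass. Mta2 read lower on feeders in both genotypes, by 1.42-fold in cells labelled null and 1.15-fold in heterozygous cells (fitted -0.36, limma adjusted p = 0.286). Mbd3 was 1.04-fold lower in cells labelled null and 1.55-fold lower in heterozygous cells (fitted -0.35, limma adjusted p = 0.383). Hdac1 was 1.01-fold higher in cells labelled null and 1.44-fold lower in heterozygous cells (fitted -0.25). Chd3 had the reverse pattern, 1.02-fold lower in cells labelled null and 2.20-fold higher in heterozygous cells, the culture in which it was low without feeders. Mbd2 was 1.38-fold lower on feeders in cells labelled null and 1.35-fold higher in heterozygous cells. Mta1, Hdac2 and Rbbp4 had fitted log2 differences between -0.10 and 0.03.

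Over the 10 members the median feeder difference was -0.10, beside 0.03 over all tested genes, and 5 of 10 were lower on feeders in both genotypes, as were 30.1% of all tested genes. Probe sets of the same gene disagreed. Mta3 was higher on feeders by its brightest probe set, by 1.16-fold in cells labelled null and 1.21-fold in heterozygous cells, and lower by its other 2 probe sets. Hdac2 had fitted differences of 0.03 and 0.16 by its brighter probe sets, while its dimmest read 21.1 on feeders and 45.9 without feeders in cells labelled null, and 12.1 and 38.3 in heterozygous cells. The dimmest Rbbp4 probe set was 1.62-fold and 1.58-fold lower on feeders in cells labelled null and heterozygous cells, and the brightest 1.02-fold and 1.13-fold. Which transcripts these probe sets bind is not given in the sources used here.

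**Figure D3:**
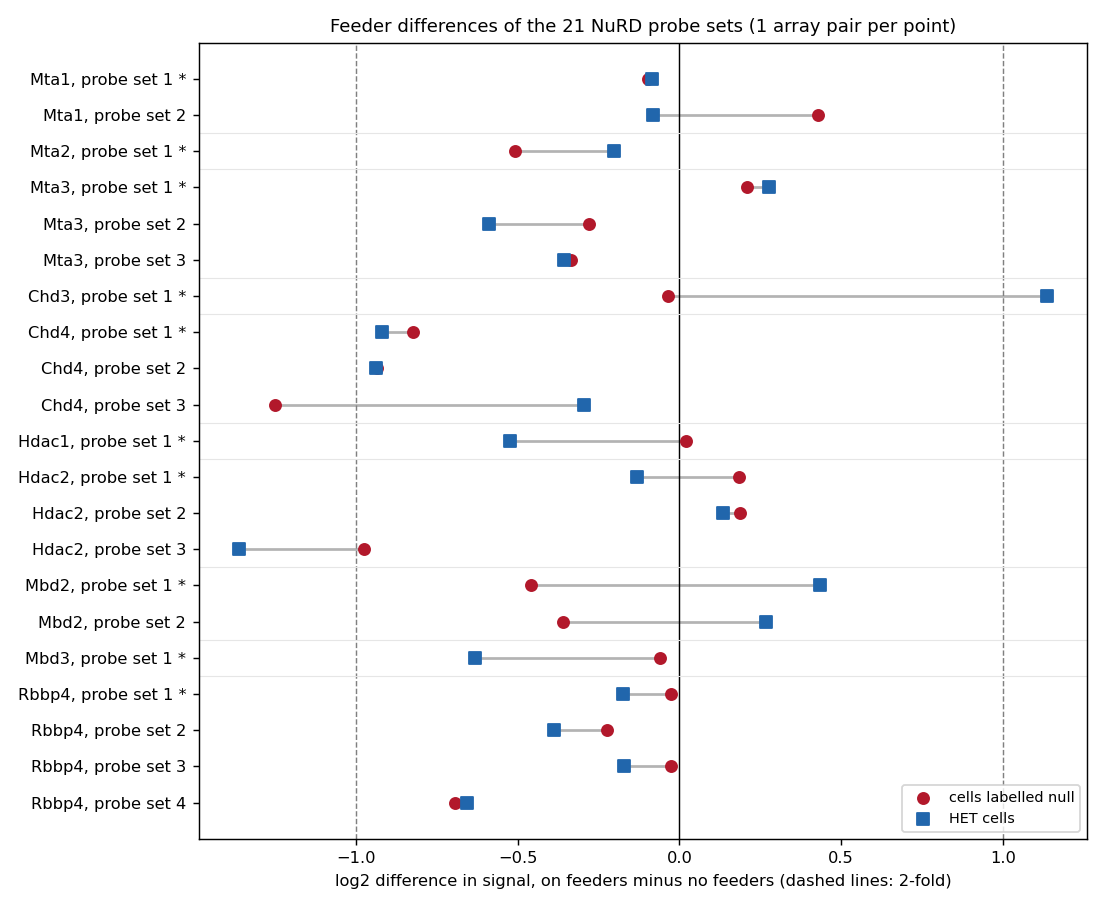
Log2 difference in signal between the array on feeders and the array without feeders for the 21 NuRD probe sets, in cells labelled null (circles) and heterozygous cells (squares), each point from 1 pair of arrays. Asterisks mark the probe set that read the gene. All 3 Chd4 probe sets lie left of 0 in both genotypes, while the 3 Hdac2 probe sets and the 3 Mta3 probe sets lie on different sides.

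Fibroblast markers rose on feeders in this test, 18 of 19 with a median log2 difference of 4.65, where 3.88% of all tested genes rose. Col1a2 read 2506.4 on feeders against 36.2 without feeders in cells labelled null, and 1811.9 against 38.4 in heterozygous cells. The summed signal of 12 ES cell markers was 24140.5 on feeders and 20865.8 without feeders in cells labelled null, and 26215.5 and 25120.5 in heterozygous cells. Of these 12 markers 1 rose and 1 fell on feeders in the test, beside 3.88% and 0.881% of all tested genes. By signal, 10 read higher on feeders in cells labelled null and 7 in heterozygous cells, as did 6722 and 6608 of all 12485 tested genes. The part of feeder RNA in the members' differences was not tested.

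Promoters of 6 of the 10 members were used from the RefSeq table (GRCm38.p6), read as the 250 bases before the annotated start. Where a gene had several starts, the most upstream was taken. A chromosome was left out for members and all windows alike, so a member without a window here need not be absent from the table. All 6 held the GC box GGGCGG on either strand, which 32.7% of 32851 promoter windows held. Those windows had a median of 6 CpG, and the members between 12 and 39. The CCAAT box, CCAAT on either strand, was found in 2 of 6, against 33.8% of windows. The promoter of Chd4 is shown as that of the member called on feeders, Mbd3 as the subunit best known for NuRD function in ES cells, and Mta1 as the scaffold gene with the smallest feeder difference, chosen after its values were seen, with GC and CCAAT boxes in capitals.
Chd4, chr6:125095731-125095980, plus strand: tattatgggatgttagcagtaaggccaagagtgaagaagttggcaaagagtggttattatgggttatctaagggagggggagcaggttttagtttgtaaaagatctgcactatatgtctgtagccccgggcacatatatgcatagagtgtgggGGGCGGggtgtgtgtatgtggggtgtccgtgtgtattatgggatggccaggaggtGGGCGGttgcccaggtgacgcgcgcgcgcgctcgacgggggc
Mbd3, chr10:80399532-80399781, minus strand: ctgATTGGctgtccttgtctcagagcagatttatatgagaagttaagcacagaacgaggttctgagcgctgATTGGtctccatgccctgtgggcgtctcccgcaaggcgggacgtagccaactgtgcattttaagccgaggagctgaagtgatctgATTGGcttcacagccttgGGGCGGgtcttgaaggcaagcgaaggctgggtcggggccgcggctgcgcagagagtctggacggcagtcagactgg
Mta1, chr12:113098028-113098277, plus strand: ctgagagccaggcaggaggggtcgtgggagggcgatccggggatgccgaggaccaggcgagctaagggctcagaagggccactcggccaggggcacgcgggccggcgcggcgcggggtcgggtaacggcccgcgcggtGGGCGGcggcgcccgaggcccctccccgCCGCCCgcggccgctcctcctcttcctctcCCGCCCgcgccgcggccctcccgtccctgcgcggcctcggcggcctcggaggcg
The Mbd3 window held 3 copies of the CCAAT box and 1 GC box, the Chd4 window 2 GC boxes with 12 CpG, and the Mta1 window 3 GC boxes with 39 CpG. These matches describe the letters of the windows and say nothing of binding.

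The remaining core subunits were read as a companion list with reported partners, 11 genes in all. None was called by limma in either comparison (0 of 11). Among all tested genes 0.032% were called by genotype, and 3.88% higher and 0.881% lower by feeders, so few calls would be looked for in a list this short. At an unadjusted limma p under 0.05, 2 were higher by genotype, beside 5.8% of all tested genes. By feeders 1 was higher and 2 lower, beside 14.1% and 7.77%. Rbbp7, the paralogue of Rbbp4, read 3515.6 in cells labelled null and 3268.6 in heterozygous cells on feeders, and 4469.3 and 3735.6 without feeders (fitted log2 difference 0.18, limma adjusted p = 0.395). Gatad2a, a subunit that bridges MBD and CHD proteins, had a fitted difference of -0.17 and its relative Gatad2b of 0.09. The largest differences in this list belonged to Chd5, a CHD gene best known from neurons, at -0.66 (SE 0.29) and to the chromatin reader gene Zmynd11 at 0.62 (SE 0.17). Zmynd11 read 304.1 in cells labelled null and 214 in heterozygous cells on feeders, and 296.8 and 175.1 without feeders, higher in each pair (limma adjusted p = 0.257).

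Factors known to bring NuRD to DNA formed another list. Of 18 listed genes 16 were tested, and 0 were called by limma in either comparison. The called shares of all tested genes were 0.032% by genotype, and 3.88% higher and 0.881% lower by feeders. At an unadjusted limma p under 0.05 there were 2 higher and 2 lower by genotype, beside 5.8% and 6.5% of all tested genes. By feeders there were 5 higher and 2 lower, beside 14.1% and 7.77%. Sall3, a relative of Sall4 with the same kind of N-terminal motif, read 41.1 in cells labelled null and 5.2 in heterozygous cells on feeders, and 83.2 and 2.4 without feeders, higher in each pair. Both heterozygous signals lie under the filter signal, so the fitted log2 difference of 2.94 (SE 0.42, limma adjusted p = 0.126) depends on the offset, and it ran between 1.87 and 3.70 over the alternatives. Sall1 and Sall2 had fitted differences of 0.21 and 0.24 with SEs of 0.20 and 0.36. Bcl11a, a zinc finger factor of blood and brain, read 38.2 and 5.1 on feeders and 16.7 and 13 without feeders. The lowest fitted difference of this list was -0.56.

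Genes of related families were called in neither comparison (0 of 44 distinct genes by limma). The called shares of all tested genes were 0.032% by genotype, and 3.88% higher and 0.881% lower by feeders. At an unadjusted limma p under 0.05, 1 was higher and 4 lower by genotype, beside 5.8% and 6.5% of all tested genes. By feeders 3 were higher and 3 lower, beside 14.1% and 7.77%. Among other deacetylases, Hdac6, which acts on tubulin, read 250.5 in cells labelled null and 493.8 in heterozygous cells on feeders, and 341.3 and 561.7 without feeders, lower in each pair (fitted -0.84, SE 0.15, limma adjusted p = 0.156). In the CoREST complex, which shares HDAC1 and HDAC2 with NuRD, the scaffold gene Rcor2 read 92.1 and 176 on feeders and 122.2 and 228.9 without feeders (fitted -0.89, SE 0.17, limma adjusted p = 0.178). Gse1 of the same list had a fitted difference of -0.47. The 13 tested genes of the SIN3 complex, which shares the deacetylases and RBBP4 with NuRD, stayed between -0.17 and 0.42, with Brms1 at 0.42 and Brms1l at 0.24. Other CHD remodellers had a median of -0.05, with Chd1l at -0.33. Among other methyl-CpG-binding domain genes, Baz2b was at 0.61 and Baz2a at -0.38. Hdac7 had a fitted difference of 0.59 (SE 0.25).

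A last list held 10 ES cell and trophectoderm genes, several of which MBD3 or NuRD is reported to restrain in mouse ES cells. By genotype none was called (0 of 10 by limma), beside 0.032% of all tested genes. At an unadjusted limma p under 0.05, 6 were lower and 1 was higher, as were 6.5% and 5.8% of all tested genes. Of the 12 ES cell markers, which share Klf4 and Zfp42 with this list, 5 were lower and 0 higher at that threshold. The list of 10 was chosen with earlier results of these data known, so its counts are no test of genes restrained by NuRD. The median log2 difference was -0.84. Dppa3, a gene of germ cells and the early embryo, and Pramel6, an early embryonic gene, had the largest fitted differences. Dppa3 read 68.4 in cells labelled null and 251.8 in heterozygous cells on feeders, and 29.5 and 219.2 without feeders. Pramel6 read 4.1 in cells labelled null and 50.4 in heterozygous cells on feeders, and 6.4 and 28.6 without feeders (fitted -2.13, SE 0.38, limma adjusted p = 0.154). Both Pramel6 signals in cells labelled null lie under the filter signal, and the fitted value ran between -2.67 and -1.27 over the alternatives.

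By feeders, 1 gene of that list of 10 rose and 1 fell in the limma test, where 3.88% and 0.881% of all tested genes did. Klf4, a factor of naive pluripotency, read 1188.4 on feeders and 715.6 without feeders in cells labelled null, and 1230.5 and 572.2 in heterozygous cells. The fitted log2 difference was 0.91 (limma adjusted p = 0.0228), and the call was lost under 5 of 10 alternatives, with an adjusted p of up to 0.139. Cdx2, a trophectoderm factor, read 4.9 on feeders and 82.2 without feeders in cells labelled null, and 2.1 and 17.1 in heterozygous cells (limma adjusted p = 0.043). Both Cdx2 signals on feeders lie under the filter signal, so the size of its difference depends on the offset. The fitted value lay between -3.18 and -1.50, and the call was lost under 4 of the 8 alternatives in which the gene was tested, with an adjusted p of up to 0.173.

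**Figure D4:**
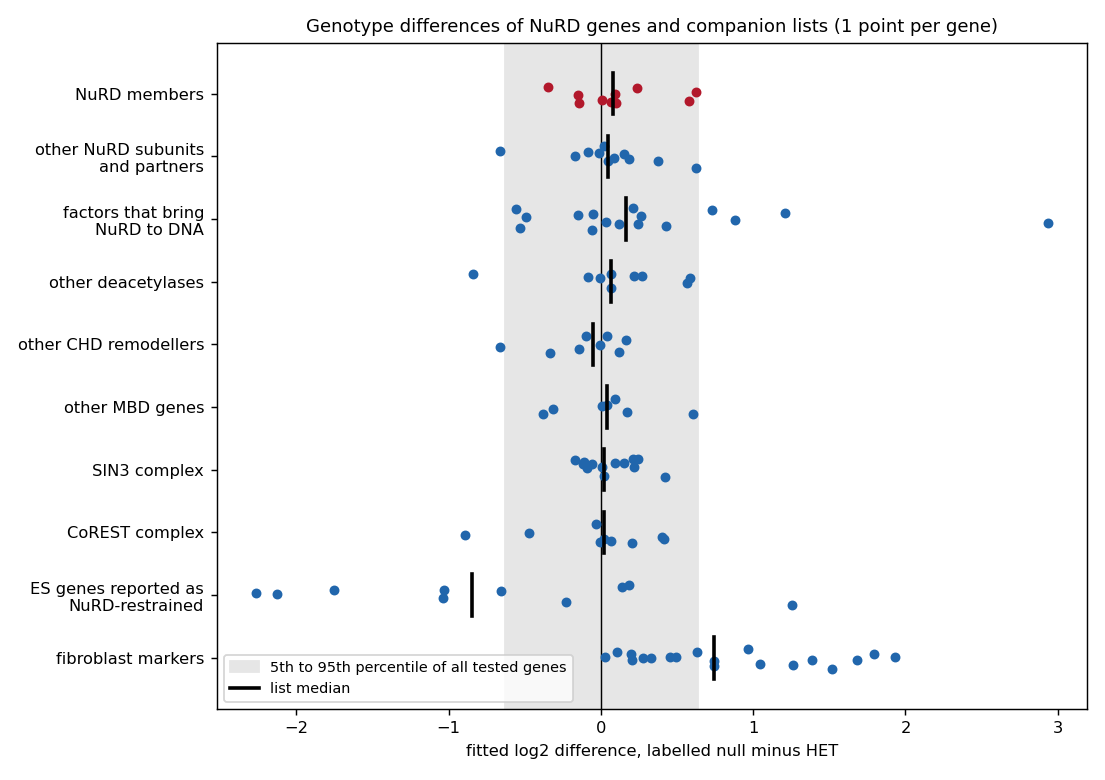
Fitted log2 difference by genotype (labelled null minus heterozygous) of each tested gene in the NuRD list and 9 other lists, with the list median as a bar and the 5th to 95th percentile of all 12485 tested genes shaded (-0.63 to 0.64). The 10 NuRD genes lie within the shaded range. Sall3, at 2.94, lies farthest to the right, a value that moves with the offset, and Dppa3, at -2.26, farthest to the left.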

How the data were processed

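Total RNA from 4 cultures was labelled and hybridised to 1 array each, per the labels. The deposited values were linear MAS5 intensity signals, per the submitters' processing notes, without a version, genome build or detection calls. The 2% trimmed mean was 100 on each array. Probe sets were named by the platform annotation: of 45101, 64 controls were left out, 34945 had 1 symbol, 932 several and 9160 were not listed. Only those with 1 symbol were used. Signals became log2(signal + 4.6), the offset being the 25th percentile of all signals. Genes with a mean under the 40th percentile (signal 9.46) were left out. limma 3.58.1 in R 4.3.3 (lmFit, eBayes with trend) fitted genotype and feeder terms, two-sided, with 1 residual and 4.75 prior degrees of freedom. That residual measures how far the genotype effect changed with feeders, so p-values do not measure the spread between replicate cultures. The size rule counted differences of one sign in both conditions where the higher signal of each pair exceeded 17.1, the median. The model was run on simulated data, where fitted differences averaged near those put in, 2-fold ones were not called, and some unchanged genes were.

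The members and lists were chosen with earlier results of these data known. Named were the 10 members with every probe set, Sall4, other core subunits, Sall1 to Sall3, the top 2 genes by genotype of each other list and any called gene. Alternatives changed the offset, filter, scaling, reading of probe sets, variance prior and model.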

Additional observations from a re-analysis of the deposited data

Results flagged for a closer look

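Mbd2 was flagged because its feeder difference had opposite signs in the 2 genotypes by at least 0.25 on the log2 scale in each. The share of all tested genes that meet this rule was not counted. The Mbd2 feeder difference was -0.46 in cells labelled null and 0.43 in heterozygous cells. Each value came from 1 pair of arrays, and the difference between them was not tested. That difference is the same contrast as the -0.89 given above, not a further result. The second Mbd2 probe set gave -0.36 and 0.27.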

How the results depend on the processing

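Over 10 alternatives the fitted genotype differences of the members kept their direction and stayed short of the threshold in 99 of 100 cases, and 0 members were called by genotype under each. The exception was Mta2, at -0.053 under median centring. By feeders 90 of 100 cases kept direction and side. In this balanced design, no filter, the 60th percentile filter, every probe set, no variance trend and the one-factor model cannot change a fitted value. Direction was fixed in those cases of both counts, so they say nothing of its stability. The Chd4 call was lost (0 members called) with an offset of 1, no filter, the filter at the 60th percentile, the mean of probe sets, no variance trend and the one-factor model, at a log2 difference between -0.94 and -0.82 and an adjusted p between 0.0357 and 0.126 over all 10. With the mean of probe sets the members' median by feeders was -0.27, and Mta1, Mta3 and Hdac2 turned to 0.042, -0.18 and -0.33. Median centring turned Hdac2 to -0.039.

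Over all genes, 4 were called by genotype, 7 with quantile normalization or median centring, 14 with every probe set, and 0 with no filter, the 60th percentile filter, no trend or the one-factor model. By feeders 595 became 269, 268, 384, 1354, 183 and 231 with no filter, the 60th percentile filter, the mean of probe sets, every probe set, no trend and the one-factor model. By the size rule, 139 genes by genotype became 494 at 1.5-fold, 30 at 3-fold, 58 with the offset at the median signal and 78 with the 60th percentile filter. The 560 by feeders became 1246, 262, 354 with the 60th percentile filter and 984 with every probe set. By the brightest probe sets 1 member, Chd4, met it at 1.5-fold. Leaving out an array leaves the model no residual degree of freedom, so it gives values only: without the arrays lacking feeders the Chd3 and Mbd2 genotype differences are 0.04 and 0.13. The number of arrays limits the precision. No replicate block was fitted, since each group had 1 array; the feeder term already sets the genotypes against each other within each feeder condition, and the one-factor model leaves it out.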
